A study of Mus musculus with 13 samples.

Results

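The CC chemokines described here are 10 small secreted proteins that draw monocytes, macrophages, eosinophils and T cells into tissue: Ccl2, Ccl3, Ccl4, Ccl6, Ccl7, Ccl8, Ccl9, Ccl11, Ccl12 and Ccl17. They were taken by gene symbol, from probe sets annotated to that symbol alone, and make up 10 of the 18193 genes that such probe sets measure. All 10 were on the array, through 12 probe sets, and all 10 passed the filter on low values. RNA came from SM1 tumours, a transplantable BRAF-mutant mouse melanoma, grown in C57BL/6 mice and measured on 13 GeneChip mouse arrays. Every mouse received a transfer of splenocytes, either from pmel-1 animals, transgenic for a T cell receptor against the melanocyte antigen gp100, or from C57BL/6 animals as the control (Mock). Pmel-1 recipients were given dabrafenib with trametinib (Pmel_D+T, 3 arrays), dabrafenib alone (Pmel_D, 2 arrays), trametinib alone (Pmel_T, 2 arrays) or vehicle (Pmel_V, 2 arrays). Mock recipients were given both drugs (Mock_D+T, 2 arrays) or vehicle (Mock_V, 2 arrays). An array is named by its group and the replicate number in its label, as in Pmel_V 2. Dabrafenib inhibits mutant BRAF, and trametinib inhibits MEK, the kinase below it. The labels give no dose, time or age of the mice. They also do not say that the arrays of a group are of different animals, and the p-values below then cover only the spread among these arrays, which may be technical.

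CC chemokines act through G protein-coupled receptors on leukocytes. Ccl2, Ccl7 and Ccl12 are ligands of Ccr2, the receptor that brings monocytes out of the blood. Ccl3, Ccl6 and Ccl9 bind Ccr1, and Ccl4 attracts T cells and monocytes. Ccl8 is a ligand of Ccr8 in the mouse, Ccl11 (eotaxin) acts on the eosinophil receptor Ccr3, and Ccl17 acts on Ccr4. Macrophages make many of these proteins, and fibroblasts are a common source of Ccl11.

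The genes lie in clusters. On chromosome 11, Ccl2, Ccl7, Ccl11, Ccl12 and Ccl8 follow each other with no other coding gene between them, and so do Ccl9, Ccl6, Ccl3 and Ccl4 in a second block. Ccl17 lies on chromosome 8, next to Cx3cl1. RefSeq's promoter table (build GRCm38.p6) held 6 of the 10 members. The 250 bases before the start are shown for 2 pairs of neighbours whose levels are set side by side further on, Ccl8 with Ccl12 and Ccl6 with Ccl9. Ccl8 is at chr11:82114935-82115184 and Ccl12 at chr11:82101595-82101844, both on the plus strand, and Ccl9 is at chr11:83578637-83578886 and Ccl6 at chr11:83593088-83593337, both on the minus strand. Capitals mark matches to 6 motifs searched on both strands: the TATA box as TATAAA, the AP-1 site, the kappaB consensus, the GAS and STAT6-type elements and the ISRE core.
Ccl8: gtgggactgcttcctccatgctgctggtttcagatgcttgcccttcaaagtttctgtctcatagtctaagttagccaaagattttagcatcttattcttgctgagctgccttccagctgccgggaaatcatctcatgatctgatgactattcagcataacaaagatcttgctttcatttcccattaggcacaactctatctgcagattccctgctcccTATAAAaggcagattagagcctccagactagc
Ccl12: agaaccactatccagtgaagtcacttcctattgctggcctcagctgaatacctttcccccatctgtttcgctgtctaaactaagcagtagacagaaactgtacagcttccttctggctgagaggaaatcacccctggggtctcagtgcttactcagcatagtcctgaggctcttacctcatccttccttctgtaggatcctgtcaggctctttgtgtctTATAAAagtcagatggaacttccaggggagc
Ccl9: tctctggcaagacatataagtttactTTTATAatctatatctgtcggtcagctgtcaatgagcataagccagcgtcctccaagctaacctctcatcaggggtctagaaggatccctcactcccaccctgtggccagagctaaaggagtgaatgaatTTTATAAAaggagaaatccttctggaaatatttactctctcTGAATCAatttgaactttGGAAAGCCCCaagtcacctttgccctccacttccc
Ccl6: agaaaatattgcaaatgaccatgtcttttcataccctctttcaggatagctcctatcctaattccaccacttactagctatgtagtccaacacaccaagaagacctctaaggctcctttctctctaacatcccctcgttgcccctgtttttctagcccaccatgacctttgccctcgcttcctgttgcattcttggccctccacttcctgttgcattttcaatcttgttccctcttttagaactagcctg
Ccl8 and Ccl12 each held 1 TATAAA, 32 to 27 bases before the start in Ccl8 and 31 to 26 bases before it in Ccl12. That motif was in 12.4% of the 32851 promoter windows of the same length. Ccl9 held TATAAA matches on both strands, of which 2 overlap, an AP-1 match, with the letters TGANTCA, 53 to 47 bases before the start (6.75% of windows) and a kappaB match 35 to 26 bases before it (7.25% of windows). The 250 bases of Ccl6 held none of the 6 motifs. The longest run of letters shared by Ccl6 and Ccl9 was 13 bases, and that shared by Ccl8 and Ccl12 was 8 bases.

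Values are log2 intensities, so a difference of 1 is a doubling, and they compare 1 probe set between arrays, not 1 gene with another. A level under 5.79, the 40th percentile of all values, is treated as low. Groups were compared with limma across all 13785 genes past the filter, and a gene was called at a Benjamini-Hochberg adjusted p under 0.05. In whole tumours, a change in the number of cells that make a chemokine and a change in RNA per cell cannot be told apart. The log2 ratio of 3' to 5' probe sets of Gapdh and Actb, a measure of RNA integrity, was 0.601 to 1.65 on the 7 arrays of drug-treated pmel-1 recipients, against 0.183 to 0.422 on the other 6 arrays. That ratio moved with the drug groups of pmel-1 recipients, so each call of the 10 chemokines, and of the other genes named, was also fitted with it as a covariate. Where the ratio does not overlap between groups, such a fit cannot tell it well from the group. A call lost there may be lost precision. Adipoq, an adipocyte gene, was at 10.05 on Pmel_D+T 2, 10.32 on Pmel_D 2 and 9.30 on Pmel_T 1, against 4.75 to 7.54 on the other arrays. Acta1, a skeletal muscle gene, was at 9.90 on Mock_V 3, against 5.51 to 6.61 elsewhere. Calls were therefore also made without these 4 arrays.

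**Figure D1:**
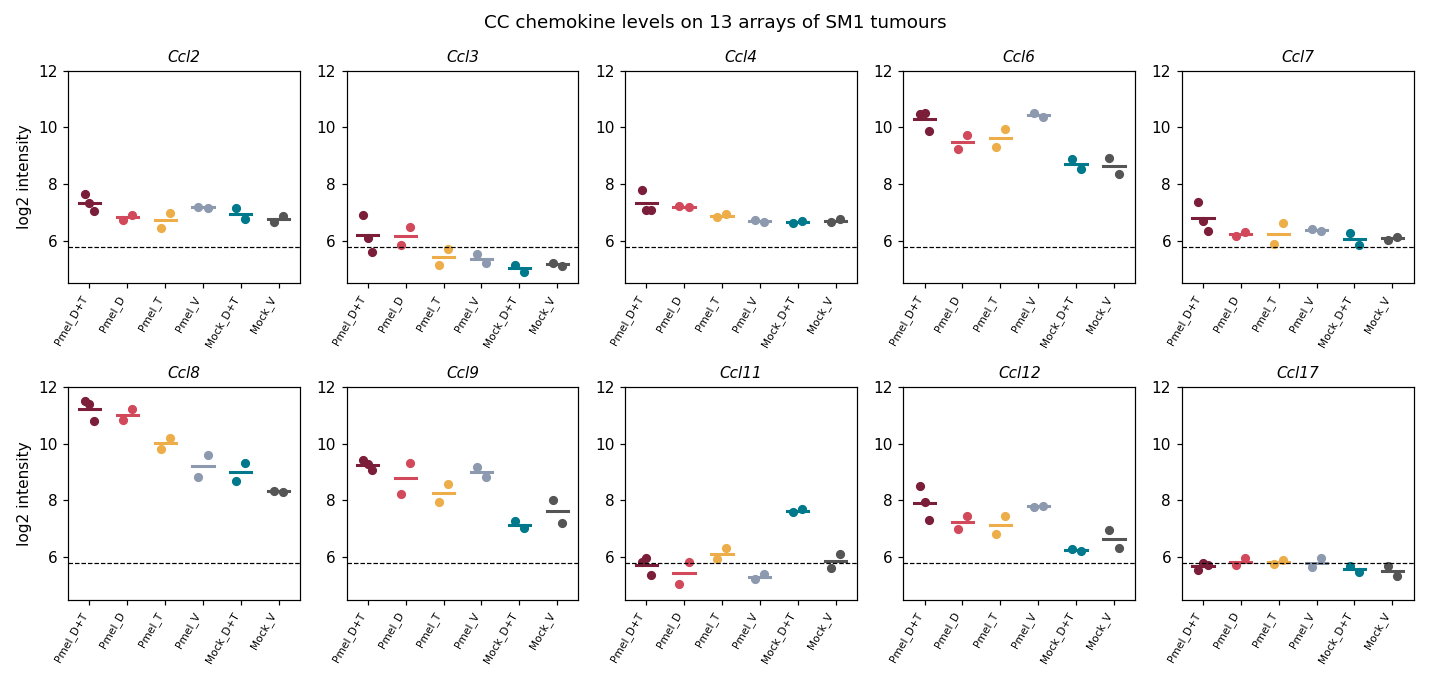
Log2 intensity of the 10 chemokines (y axis) on each array, by group (x axis); points are arrays, bars are group means and the dashed line is the low level of 5.79. Ccl8 was highest in Pmel_D+T and Pmel_D, Ccl11 was highest in Mock_D+T, and Ccl6, Ccl9 and Ccl12 were lower on all Mock arrays than on either Pmel_V array.

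Under the drug combination in pmel-1 recipients, Ccl8 and Ccl4 rose, and none of the 10 fell on its brightest probe set, while a second, dimmer set of Ccl9 fell. Ccl8, a monocyte and T cell attractant, was at 10.79, 11.52 and 11.40 in Pmel_D+T, against 8.84 and 9.60 in Pmel_V. Every Pmel_D+T array was above both Pmel_V arrays, and the difference was 2.02 ± 0.28 on the log2 scale (SE; 4.05-fold; adjusted p = 1.8e-04). It was 1.70 (adjusted p = 0.0171) with the 3'/5' ratio as a covariate. Ccl4, which attracts T cells and monocytes, was at 7.10, 7.78 and 7.10 in Pmel_D+T, against 6.73 and 6.66 in Pmel_V. Its groups did not overlap either, and it rose by 0.63 ± 0.17 (adjusted p = 0.0116). With the 3'/5' ratio as a covariate the Ccl4 difference was 0.53 (adjusted p = 0.205), and without Pmel_V 2 it was 0.59 (adjusted p = 0.0714). Without Pmel_D+T 2 it was 0.41 and still passed (adjusted p = 0.00784). Of all genes tested, 45.6% were called in this comparison, 24.3% as higher and 21.2% as lower, so a count of 2 of 10 does not exceed the background. The median difference of the 10 was 0.33, against 0.02 over all genes tested.

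Ccl3, the neighbour of Ccl4, was at 5.61, 6.90 and 6.11 in Pmel_D+T and at 5.53 and 5.21 in Pmel_V. The groups did not overlap, but both Pmel_V arrays were at low level. Ccl3 was above the low level on Pmel_D+T 2, Pmel_D+T 3 and the Pmel_D arrays alone. It passed the filter through them, so it is given as levels, with no test. The Ccr2 ligands showed no call. Ccl2 was at 7.04, 7.66 and 7.33 in Pmel_D+T and 7.19 and 7.17 in Pmel_V, and Ccl7 at 6.34, 7.37 and 6.71 in Pmel_D+T and 6.42 and 6.33 in Pmel_V. Ccl12 was at 7.32, 8.52 and 7.93 in Pmel_D+T, on both sides of its 7.78 and 7.79 in Pmel_V. In all 3 of these genes Pmel_D+T 2, an array high in Adipoq, held the highest value. Ccl6 differed by -0.14 ± 0.26, Ccl9 by 0.26 ± 0.32, Ccl11 by 0.40 ± 0.24 and Ccl17 by -0.11 ± 0.15.

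Dabrafenib alone, set against the same Pmel_V arrays, also gave higher Ccl8 and gave lower Ccl6. Ccl8 was at 10.82 and 11.21 in Pmel_D, above both Pmel_V arrays, a difference of 1.80 ± 0.30 (3.47-fold; adjusted p = 8.7e-04). Ccl6, a macrophage chemokine of the Ccr1 ligands, was at 9.24 and 9.74 in Pmel_D, against 10.50 and 10.36 in Pmel_V. It fell by 0.94 (SE 0.28, adjusted p = 0.0202). With the 3'/5' ratio as a covariate Ccl8 differed by 1.49 (adjusted p = 0.0366) and Ccl6 by -1.26 (adjusted p = 0.0493). The Ccl6 call did not hold without Pmel_D 1 (adjusted p = 0.124), Pmel_V 1 (adjusted p = 0.1) or Pmel_V 2 (adjusted p = 0.0588), and on its second probe set the difference was -0.77 (adjusted p = 0.138). The 2 members called, 1 in each direction, compare with 41.4% of all genes tested: 21.8% as higher and 19.6% as lower. Ccl4 was at 7.22 and 7.18 in Pmel_D, above both Pmel_V arrays, but missed the threshold with a difference of 0.51 ± 0.19 (adjusted p = 0.0528). Without the 4 arrays high in Adipoq or Acta1, 5 members were called, 2 higher and 3 lower: beside Ccl8 and Ccl6, Ccl4 differed by 0.52, Ccl9 by -0.75 and Ccl12 by -0.79, in a fit that leaves a single Pmel_D array, assumed to vary like the other groups, and that called 23.1% of all genes tested.

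Trametinib alone gave higher Ccl11 and lower Ccl6, where 38.6% of all genes tested were called, 19.5% as higher and 19.1% as lower. Ccl11 was at 6.32 and 5.93 in Pmel_T, against 5.24 and 5.39 in Pmel_V. Both Pmel_V arrays were at low level, so the difference of 0.81 ± 0.26 (adjusted p = 0.0301) is given without a fold. Ccl6 was at 9.94 and 9.31 in Pmel_T, below both Pmel_V arrays, and fell by 0.81 (SE 0.28, adjusted p = 0.0418). Neither call was firm. With the 3'/5' ratio as a covariate Ccl11 differed by 0.46 (adjusted p = 0.32) and Ccl6 by -1.07 (adjusted p = 0.053), so both calls were lost, and Ccl9 was called in their place with a difference of -1.37 (adjusted p = 0.0174). Leaving out Pmel_V 1, Pmel_V 2 or Pmel_T 1 ended the Ccl11 call (adjusted p of 0.139, 0.075 and 0.189), and leaving out Pmel_V 1, Pmel_V 2 or Pmel_T 2 ended the Ccl6 call (adjusted p of 0.166, 0.099 and 0.286). Ccl8 was at 10.22 and 9.82 in Pmel_T, between the levels of Pmel_D and Pmel_V, and its difference from Pmel_V was 0.80 ± 0.30 (adjusted p = 0.0582), or 1.18 without Pmel_V 2 (adjusted p = 0.0243). Without the 4 arrays high in Adipoq or Acta1, 4 members were called lower, Ccl2, Ccl6, Ccl9 and Ccl12, against 26.5% of all genes tested, and Ccl11 was not called (adjusted p = 0.0819). That fit leaves Pmel_T 2 as the only Pmel_T array, assumed to vary like the other groups.

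Set directly against each other, the drug arms of pmel-1 recipients gave no call for any member. Ccl8 was higher in Pmel_D than in Pmel_T by 0.998 (SE 0.304) with no overlap (adjusted p = 0.184), where 0.776% of all genes tested were called. In Pmel_D+T against Pmel_T, where 1.1% of all genes were called, the Ccl8 difference was 1.22 ± 0.28 (adjusted p = 0.0669). There 7 of the 10 members had an unadjusted p under 0.05, against 12.9% of all genes. Ccl3 is among these 7, but it passed the filter only through Pmel_D+T and Pmel_D arrays, so its p is not a fair test. Without the 4 arrays high in Adipoq or Acta1 Ccl9 passed in that comparison, with a difference of 1.24 (adjusted p = 0.0404), against the single array Pmel_T 2, with its spread taken from the other groups, where 0.776% of genes were called. In Pmel_D+T against Pmel_D limma called 0% of genes, with 3 members and 246 of all genes (1.78%) at an unadjusted p under 0.05. The order of Ccl8 by group mean, high to low, was Pmel_D+T 11.24 ± 0.39 (SD, n = 3), Pmel_D 11.02 ± 0.27 (n = 2), Pmel_T 10.02 ± 0.28 (n = 2), Pmel_V 9.22 ± 0.54 (n = 2), Mock_D+T 8.99 ± 0.45 (n = 2) and Mock_V 8.32 ± 0.04 (n = 2). Pmel_D+T and Pmel_D overlapped, as did Pmel_V and Mock_D+T, and the other 3 neighbouring pairs did not.

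**Figure D2:**
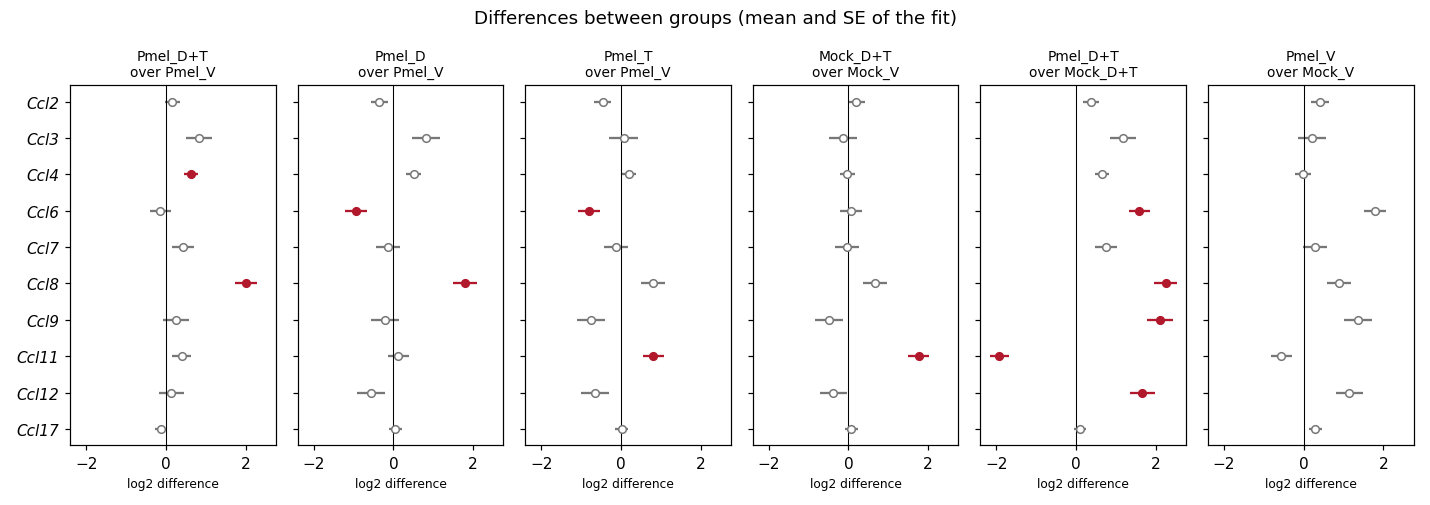
Log2 difference (x axis) of each chemokine (y axis) in 6 comparisons, with the standard error of the fit as bars; filled red points passed an adjusted p under 0.05. Ccl8 stands at 2.02 and 1.80 in the combination and dabrafenib arms of pmel-1 recipients, and Ccl11 at 1.77 under the combination in Mock recipients.

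In Mock recipients 1 chemokine of the 10, Ccl11, rose under the combination. Of all genes tested, 35.4% were called, 18.7% as higher and 16.7% as lower. Ccl11 was at 7.61 and 7.68 in Mock_D+T, against 5.63 and 6.13 in Mock_V, and 1 of the Mock_V arrays was at low level. The Mock_D+T arrays differed from each other by less than the Mock_V arrays did, and the gene rose by 1.77 ± 0.26 (3.40-fold; adjusted p = 4.2e-04). It kept its call in each of the alternatives run. By group mean Ccl11 ran, high to low, Mock_D+T 7.64 ± 0.05 (SD, n = 2), Pmel_T 6.13 ± 0.27 (n = 2), Mock_V 5.88 ± 0.35 (n = 2), Pmel_D+T 5.72 ± 0.30 (n = 3), Pmel_D 5.43 ± 0.54 (n = 2) and Pmel_V 5.31 ± 0.10 (n = 2). Mock_D+T stood clear of the rest, and every other neighbouring pair in that order overlapped. Ccl8 was at 8.67 and 9.31 in Mock_D+T, above its 8.35 and 8.30 in Mock_V, with a difference of 0.67 ± 0.30 that did not pass (adjusted p = 0.114). The other 8 members lay between -0.48 and 0.20. Without the 4 arrays high in Adipoq or Acta1 Ccl9 passed too, with a difference of -0.88 (adjusted p = 0.0162), where 23.7% of all genes were called. That fit leaves Mock_V 1, the higher of the Mock_V arrays for Ccl9, as the only vehicle array, assumed to vary like the other groups. The median of the 10 was 0.01, against -0.00319 over all genes tested.

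The response to the combination was then compared between the transfers, as the pmel-1 difference minus the Mock difference. This interaction was -1.36 ± 0.36 for Ccl11 (adjusted p = 0.141), 1.35 ± 0.41 for Ccl8 (adjusted p = 0.169) and 0.66 ± 0.26 for Ccl4 (adjusted p = 0.249). None passed, and 0.283% of all genes tested did. A call for Ccl8 in 1 transfer and for Ccl11 in the other is therefore not shown to differ between them by this test.

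Among tumours that received both drugs, those of pmel-1 recipients had higher Ccl8, Ccl9, Ccl12 and Ccl6 and lower Ccl11 than those of Mock recipients. The 5 members called compare with 4.24% of all genes tested, 2.66% as higher and 1.58% as lower. Ccl8 was at 10.79, 11.52 and 11.40 in Pmel_D+T, against 8.67 and 9.31 in Mock_D+T, a difference of 2.25 ± 0.28 (4.75-fold; adjusted p = 0.00163). Ccl9, a Ccr1 ligand made by myeloid cells, was at 9.06, 9.41 and 9.27 in Pmel_D+T, against 7.27 and 7.02 in Mock_D+T (2.10 ± 0.32; adjusted p = 0.0057). On this brighter probe set the gap between the groups was several times the spread within either. The dimmer set did not show that: it was at 6.54, 6.82 and 7.13 in Pmel_D+T, against 6.24 and 4.98 in Mock_D+T (limma adjusted p = 0.0505). Ccl12 was at 7.32, 8.52 and 7.93 in Pmel_D+T, against 6.30 and 6.23 in Mock_D+T (1.66 ± 0.31; adjusted p = 0.0181). Ccl6 was at 9.88, 10.49 and 10.51 in Pmel_D+T, against 8.88 and 8.52 in Mock_D+T (1.59 ± 0.26; adjusted p = 0.0081). In all 4 genes every Pmel_D+T array was above both Mock_D+T arrays. The share of all genes separated in this way is not given here. Ccl11 was at 5.38, 5.81 and 5.96 in Pmel_D+T, against 7.61 and 7.68 in Mock_D+T, lower by 1.93 on the log2 scale (SE 0.24; adjusted p = 0.00174). The other 5 members lay between 0.11 and 1.18, and the median of the 10 was 0.97, against -0.00784 over all genes.

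The 3'/5' ratio differed between these groups, at 0.864 to 1.31 in Pmel_D+T and 0.186 to 0.422 in Mock_D+T. With it as a covariate only the lower Ccl11 kept its call. Ccl8 differed by 1.96 (adjusted p = 0.0866), Ccl9 by 1.39 (adjusted p = 0.202), Ccl6 by 1.29 (adjusted p = 0.273) and Ccl12 by 1.28 (adjusted p = 0.465). The ratio did not overlap between the groups, so this fit cannot tell it well from the transfer, and it loses precision. The SE of Ccl8 was 0.39 with the covariate, against 0.28 without it. Without Mock_D+T 3, 2 members were called, and Ccl6, Ccl9 and Ccl12 had adjusted p of 0.0713, 0.0549 and 0.0874. Without Mock_D+T 2, Ccl12 was not called (adjusted p = 0.124). Without Pmel_D+T 3, Ccl4 was called too, with a difference of 0.76 (adjusted p = 0.0372).

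Under vehicle, pmel-1 against Mock transfer gave no call, for the members or for any of the 13785 genes (0% called by limma, 1822 genes or 13.2% at an unadjusted p under 0.05). Of the members, 4 had an unadjusted p under 0.05. Ccl6 was at 10.50 and 10.36 in Pmel_V, against 8.92 and 8.36 in Mock_V, a difference of 1.79 ± 0.28 (adjusted p = 0.0712). The corresponding differences were 1.37 ± 0.35 for Ccl9, 1.15 ± 0.34 for Ccl12 and 0.90 ± 0.30 for Ccl8, with adjusted p of 0.179, 0.217 and 0.252. In each of these 4 genes, taken by their p, both Pmel_V arrays were above both Mock_V arrays. The share of all genes separated in this way is not given here, so the separation adds no support. These arrays had 3'/5' ratios of 0.183 and 0.224 in Pmel_V and 0.251 and 0.284 in Mock_V, so the ratio was close in both groups. The order of Ccl6 by group mean was Pmel_V 10.43 ± 0.10 (SD, n = 2), Pmel_D+T 10.29 ± 0.36 (n = 3), Pmel_T 9.62 ± 0.44 (n = 2), Pmel_D 9.49 ± 0.36 (n = 2), Mock_D+T 8.70 ± 0.25 (n = 2) and Mock_V 8.64 ± 0.39 (n = 2), with all pmel-1 arrays above all Mock arrays. For Ccl12 the ranges overlapped: its lowest pmel-1 value was 6.82, in Pmel_T 2, and its highest Mock value was 6.96, in Mock_V 1. Without Mock_V 1, Ccl6 passed with a difference of 2.07 (adjusted p = 0.0342).

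Ccl6 and Ccl9 were each measured by a second, dimmer probe set, tested in a fit of all 29168 probe sets past the filter. For Ccl6 the sets had the same sign in the transfer comparisons, and the second set was higher in Pmel_D+T than in Mock_D+T by 1.94 ± 0.35 (adjusted p = 0.0181), or by 1.73 with the 3'/5' ratio as a covariate (adjusted p = 0.422). In Pmel_T over Pmel_V, where the brighter set was called, the second set of Ccl6 differed by -0.70 (adjusted p = 0.184). For Ccl9 they differed on the drugs in pmel-1 recipients, in sign for the combination and in size for each drug alone. The second set was at 6.54, 6.82 and 7.13 in Pmel_D+T, 6.33 and 6.39 in Pmel_D and 6.22 and 5.91 in Pmel_T, against 7.97 and 7.81 in Pmel_V. All 7 drug-treated arrays were below both vehicle arrays, with differences of -1.06 ± 0.29 (adjusted p = 0.0125), -1.53 ± 0.32 (adjusted p = 0.00341) and -1.83 ± 0.32 (adjusted p = 0.00137). On the brighter set the same differences were 0.26, -0.21 and -0.74, and none passed. With the 3'/5' ratio as a covariate the second set differed by -0.87 (adjusted p = 0.238), -1.35 (adjusted p = 0.0839) and -1.68 (adjusted p = 0.0203). In Pmel_D+T over Mock_D+T the second set of Ccl9 differed by 1.22 (adjusted p = 0.0505), against 2.10 on the brighter set. The second set minus the first was -2.94 to -1.91 on the 7 drug-treated pmel-1 arrays, where the 3'/5' ratio was high, and -2.04 to -0.75 on the other 6. The part of that ratio in the disagreement was not tested. The direction of Ccl9 under the combination in pmel-1 recipients is therefore uncertain in these data, while both sets were lower under each drug alone. Their average was at a difference of -1.29 (adjusted p = 0.00379) under trametinib and -0.87 (adjusted p = 0.0261) under dabrafenib, by limma. Without Pmel_D 1 the dabrafenib difference on the brighter set was 0.33.

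**Figure D3:**
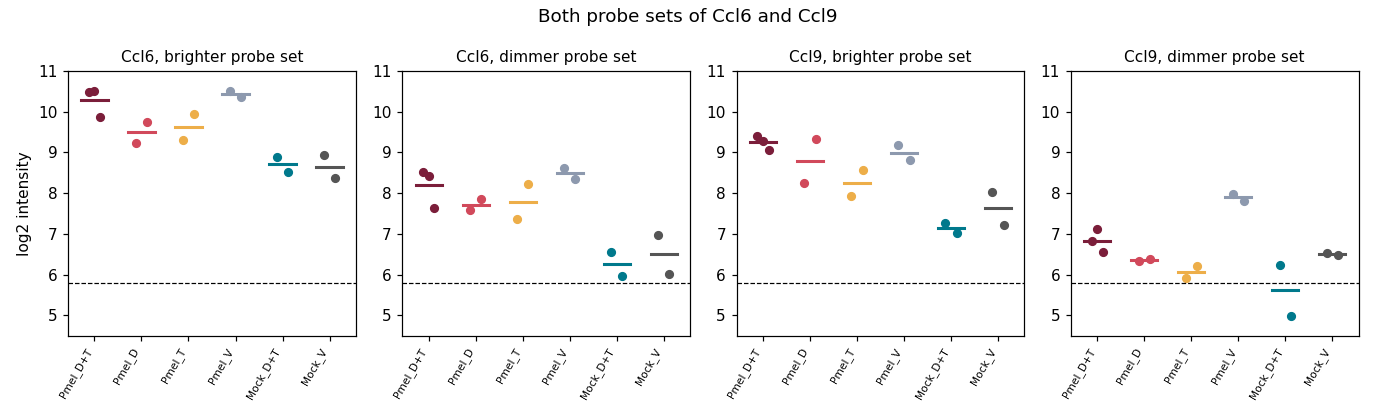
Log2 intensity (y axis) of both probe sets of Ccl6 and Ccl9 by group (x axis), with arrays as points, group means as bars and the low level of 5.79 dashed. The dimmer Ccl9 set reaches at most 7.13 on the drug-treated pmel-1 arrays and is at 7.97 and 7.81 in Pmel_V, which the brighter set does not show.

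Ccl17, a T cell attractant made by dendritic cells, was at low level on 9 of 13 arrays and between 5.34 and 5.98 on all of them. Ccl3 was at low level on 9 arrays and Ccl11 on 5. Across the 13 arrays the members nearest to each other were Ccl2 and Ccl7, whose deviations from their own means differed by 0.142 on average, then Ccl6 and Ccl12 (0.216). The farthest apart were Ccl8 and Ccl11 (1.30), which lie on either side of Ccl12 in the gene order. The measure is not scaled, so genes that vary little come out near each other. The mean deviation from a gene's own mean was 0.242 for Ccl2 and 0.269 for Ccl7, against 0.999 for Ccl8 and 0.577 for Ccl11. The nearest genes outside the family were Ctss, Irgm1 and Nkg7 for Ccl8 (mean difference 0.222 to 0.237), and Islr, Gucy1a1 and Fstl1 for Ccl11 (0.270 to 0.298). The 3 nearest of both Ccl6 and Ccl12 were Mrc1 and Msr1, a lectin and a scavenger receptor of macrophages, and Gda (0.309 from Ccl6, 0.217 from Ccl12). Clec10a, a macrophage lectin, was the nearest of Ccl9 (0.258), followed by Srgn and Msr1.

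**Figure D4:**
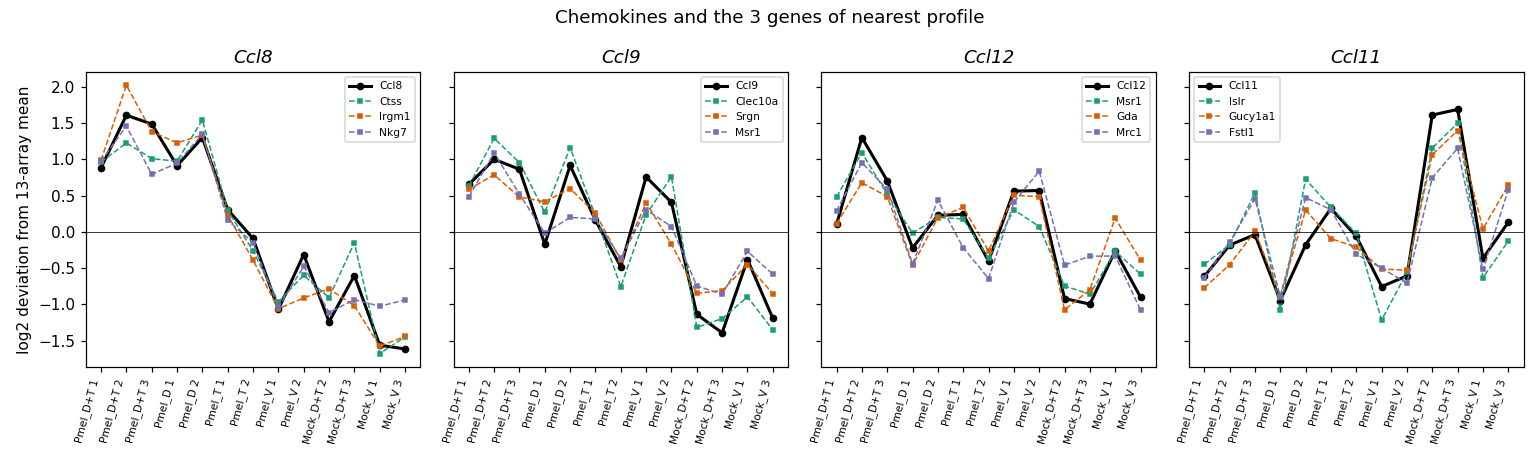
Log2 deviation from the 13-array mean (y axis) for Ccl8, Ccl9, Ccl12 and Ccl11 (black) and the 3 genes with the nearest profile (coloured), array by array (x axis). Ccl11 and its nearest genes peak on the 2 Mock_D+T arrays, where Ccl9 and Ccl12 are low.

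The receptors were less often measurable. Of 9 receptors and scavengers measured, 5 passed the filter. Ccr3 (3.44 to 3.85), Ccr4 (4.46 to 5.49) and Ccr8 (3.99 to 4.64) were at low level on all 13 arrays. Ccr1, the receptor of Ccl3, Ccl6 and Ccl9, was at 6.84, 7.44 and 7.20 in Pmel_D+T, against 6.04 and 5.52 in Mock_D+T, and rose by 1.38 ± 0.24 (adjusted p = 0.0108). Ccr2 rose by 0.42 ± 0.14 in Pmel_D over Pmel_V (adjusted p = 0.032). Neither call held with the 3'/5' ratio as a covariate, where Ccr1 differed by 1.08 (adjusted p = 0.337) and Ccr2 by 0.19 (adjusted p = 0.511).

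Markers of cells that make or follow these chemokines moved in the same comparisons, and their part in the chemokine differences was not tested. Of 9 monocyte and macrophage markers tested, 7 rose in Pmel_D+T, 7 in Pmel_D and 0 in Pmel_T over Pmel_V. In Mock_D+T over Mock_V 6 rose, and in Pmel_D+T over Mock_D+T 4 rose. Of all genes tested, 24.3%, 21.8%, 19.5%, 18.7% and 2.66% were called higher in these comparisons, in that order. In Pmel_T over Pmel_V 3 of the 9 had an unadjusted p under 0.05 by limma, against 46.8% of all genes tested. Adgre1 encodes the macrophage antigen F4/80. It rose by 1.67 ± 0.26, 1.77 ± 0.29 and 0.99 ± 0.29 in Pmel_D+T, Pmel_D and Mock_D+T over their vehicle groups. Fitted with the 3'/5' ratio, 5 of the 7 macrophage calls in Pmel_D+T, 4 of the 7 in Pmel_D and all 6 in Mock_D+T over vehicle held, Adgre1 among them in each, and none of the 4 in Pmel_D+T over Mock_D+T did. The log2 summed level of the 10 such markers measured was 13.25 to 13.67 in Pmel_D+T, 13.20 to 13.93 in Pmel_D, 12.05 to 12.60 in Pmel_T and 11.93 to 12.05 in Pmel_V. In Mock recipients it was 12.39 to 12.76 in Mock_D+T and 11.48 to 11.80 in Mock_V. Of 9 alternatively activated macrophage markers tested, Arg1, Chil3 and Clec10a were higher in Pmel_D+T than in Mock_D+T, where 2.66% of all genes were called higher. Clec10a was at 7.88, 8.54 and 8.20 in Pmel_D+T, against 5.93 and 6.05 in Mock_D+T. Mgl2 was above the low level on the Pmel_D+T arrays and 1 Pmel_D array alone and passed the filter through them. It is therefore given as levels, with no test, at 5.91 to 6.55 in Pmel_D+T and 4.96 to 4.97 in Mock_D+T. Both Mock_D+T arrays were at low level for Arg1, Chil3 and Mgl2. Lyve1, named after its value was seen, was lower. Among Arg1, Chil3, Clec10a and Lyve1, Arg1 alone kept its call with the 3'/5' ratio as a covariate (adjusted p = 0.0221). The summed level of the 10 markers of that list was 10.41 to 10.89 in Pmel_D+T and 10.76 to 10.87 in Pmel_V, against 9.69 to 9.88 in Mock_D+T and 9.45 to 9.85 in Mock_V. Cd3g, a subunit of the T cell receptor complex, was at 6.35, 7.42 and 6.59 in Pmel_D+T, against 4.05 and 4.17 in Mock_D+T. It was above the low level on the Pmel_D+T and Pmel_D arrays alone and passed the filter through them, so it is given as levels, with no test.

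None of the 7 eosinophil markers measured passed the filter. Siglecf was between 4.17 and 5.05, and Prg2, Epx, Il5ra, Ccr3, Prg3 and Alox15 were at low level on every array too, also in Mock_D+T, where Ccl11 was highest. Their log2 summed level was 7.25 to 7.35 in Mock_D+T and 7.25 to 7.29 in Mock_V. Of 9 fibroblast markers, Dcn and Lum, small proteoglycans of the matrix, rose in Mock_D+T over Mock_V, by 2.82 ± 0.58 and 3.03 ± 0.67. In that comparison 18.7% of all genes tested were called higher. Lum was at 10.45 and 10.68 in Mock_D+T, against 6.91 and 8.17 in Mock_V, and was lower in Pmel_D+T than in Mock_D+T by 2.61 on the log2 scale (adjusted p = 0.0405). The calls of Dcn and Lum in Mock recipients held with the 3'/5' ratio as a covariate, and that of Lum in Pmel_D+T over Mock_D+T did not (adjusted p = 0.125). The log2 summed level of the 9 fibroblast markers was 14.18 to 14.85 in Mock_D+T and 12.29 to 14.05 in Mock_V. Whether Ccl11 moved with the number of fibroblasts was not tested.

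Other CC chemokines gave a further comparison. Of 8 tested, 3 rose and 1 fell in Pmel_D+T over Pmel_V, where 24.3% of all genes tested were called higher and 21.2% lower. Ccl5 rose the most, by 2.60 ± 0.28, and Ccl27a rose in all 4 drug comparisons, by 1.04 to 1.45. Of 7 inducers and type 2 signals tested, 2 were called higher in Pmel_D+T over Pmel_V, against 24.3% of all genes tested. Csf1, the macrophage growth factor, rose by 0.53 ± 0.11, and Stat6 rose by 0.53 (limma adjusted p = 0.00497). Stat6 was also called higher in Pmel_D (0.58), Pmel_T (0.42) and Mock_D+T (0.41) over their vehicle groups. With the 3'/5' ratio as a covariate Stat6 lost its call in Pmel_T (adjusted p = 0.0581) and kept the others. Cebpb, a transcription factor of myeloid cells, fell by 1.78 in Mock_D+T over Mock_V and was higher in Pmel_D+T than in Mock_D+T by 2.02 ± 0.29. It was also called lower in Pmel_D (-0.89) and in Pmel_T (-1.11) over Pmel_V. In Pmel_D+T its mean was 8.89, against 9.64 in Pmel_V, with no call. Ccl5 and Ccl27a kept these calls with the 3'/5' ratio as a covariate, and Cebpb kept its lower calls over the vehicle groups. Csf1 (adjusted p = 0.107) and Cebpb in Pmel_D+T over Mock_D+T (adjusted p = 0.117) did not keep theirs. Tnf, Il6, Ifng, Csf2, Il4, Il13 and Tslp did not pass the filter.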

How the data were processed

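Total RNA of SM1 tumours was hybridized to 1-colour arrays, 13 in all. The deposited values are log2 intensities, which the authors made with RMA from the affy package, per the submitters' processing notes, which give no version; scanner files were not used here. The number of arrays, 2 or 3 a group, limits the precision. Of 45101 probe sets, 34945 carry 1 gene symbol in GEO's platform annotation, 932 several and 9160 none. Each of 18193 genes was read from its brightest probe set, and 13785 reached 5.79 (the 40th percentile of all values) on at least 2 arrays. Groups come from sample titles. limma 3.58.1 (R 4.3.3) fitted 6 group means over all 13 arrays (7 residual degrees of freedom), with 10 contrasts, empirical Bayes and Benjamini-Hochberg adjustment over all genes tested within each; the fit was tested on simulated data. Likeness is the mean absolute difference between deviations from each gene's own 13-array mean. Named genes are the 10 members, their receptors, fixed anchors (Adgre1, Siglecf, Cd3g, Adipoq, Acta1), and up to 4 called genes by smallest p per list and comparison. The 3 nearest genes are named for Ccl6, Ccl8, Ccl9, Ccl11 and Ccl12. Members and lists were chosen with earlier results of these data known. Alternatives are given in the closing section.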

Additional observations from a re-analysis of the deposited data

How the results depend on the processing

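The 100 member differences (10 members in 10 comparisons) and the 10 counts of members called were recomputed under the alternatives, except that the stricter filter leaves out Ccl17 (90 differences) and the second probe set exists for Ccl6 and Ccl9 alone (20 differences, no counts). Counts in brackets are those of the report. All counts include Ccl3, which passed the filter only through Pmel_D+T and Pmel_D arrays. No member called in the main comparisons changed sign under any of them. The number of members called changed by over 1.5 times as follows. With the 3'/5' ratio as a covariate, the count was 1 in Pmel_D+T over Pmel_V (against 2), 1 in Pmel_T over Pmel_V (against 2), 1 in Pmel_D+T over Mock_D+T (against 5). Without the 4 arrays high in Adipoq or Acta1, the count was 2 in Mock_D+T over Mock_V (against 1), 5 in Pmel_D over Pmel_V (against 2), 4 in Pmel_T over Pmel_V (against 2), 1 in Pmel_D+T over Pmel_T (against 0). With the replicate number as a block, the count was 1 in Pmel_T over Pmel_V (against 2). With only the arrays compared, the count was 4 in Pmel_T over Pmel_V (against 2). The 1 member called with the covariate in Pmel_T over Pmel_V was Ccl9, which is not one of the 2. The replicate numbers did not pair the arrays (23 pairs with the same number, r of -0.465 to 0.449, 4 over 0.1), and the block changed no other count of members. The share of all genes called is given further up for the omission of the 4 arrays, and is not given for the other alternatives. Whether the counts of members moved with that share was not tested, and neither was the cause of these changes. On leaving out 1 array at a time, the count ran from 1 to 3 in Pmel_D+T over Pmel_V, from 1 to 2 in Pmel_D over Pmel_V, from 0 to 1 in Pmel_T over Pmel_V, from 0 to 1 in Pmel_V over Mock_V, from 2 to 6 in Pmel_D+T over Mock_D+T; it stayed at 1 in Mock_D+T over Mock_V and at 0 in the other 4 comparisons. 

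Sign changes were found only in differences that were not called. For Pmel_D+T over Pmel_V, with probe sets averaged Ccl9 was -0.40, with the 3'/5' ratio as a covariate Ccl2 was -0.011 and Ccl9 was -0.54 and Ccl11 was -0.035 and Ccl12 was -0.28, without the 4 arrays Ccl12 was -0.16, on the second probe set Ccl9 was -1.06. For Mock_D+T over Mock_V, with probe sets averaged Ccl6 was -0.089, without the 4 arrays Ccl4 was 0.017 and Ccl6 was -0.22 and Ccl7 was 0.028 and Ccl17 was -0.10, on the second probe set Ccl6 was -0.24. For Pmel_D over Pmel_V, with median centring Ccl17 was -0.0038, with the 3'/5' ratio as a covariate Ccl11 was -0.31 and Ccl17 was -0.080, without the 4 arrays Ccl11 was -0.27 and Ccl17 was -0.093. For Pmel_T over Pmel_V, with quantile normalization Ccl17 was -0.030, with median centring Ccl17 was -0.032, with the 3'/5' ratio as a covariate Ccl3 was -0.35 and Ccl17 was -0.079, without the 4 arrays Ccl3 was -0.21 and Ccl17 was -0.050. For Pmel_V over Mock_V, without the 4 arrays Ccl4 was 0.035. For Pmel_D+T over Mock_D+T, with the 3'/5' ratio as a covariate Ccl17 was -0.0068. For Pmel_D over Pmel_T, with the 3'/5' ratio as a covariate Ccl17 was -0.00049, without the 4 arrays Ccl7 was 0.26 and Ccl17 was -0.043. For Pmel_D+T over Pmel_D, with quantile normalization Ccl3 was -0.0015, without the 4 arrays Ccl3 was -0.0094 and Ccl4 was -0.12 and Ccl17 was 0.048. For Pmel_D+T over Pmel_T, without the 4 arrays Ccl17 was 0.0055. For the interaction, with the replicate block Ccl2 was 0.050, with the 3'/5' ratio as a covariate Ccl9 was -0.029, without the 4 arrays Ccl17 was 0.057, on the second probe set Ccl9 was -0.17. 

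Leaving out 1 array gave these ranges where the sign changed. In Pmel_D+T over Pmel_V, Ccl6 ran from -0.25 to 0.066, Ccl12 ran from -0.16 to 0.44, Ccl17 ran from -0.27 to 0.043. In Mock_D+T over Mock_V, Ccl4 ran from -0.080 to 0.017, Ccl6 ran from -0.22 to 0.34, Ccl7 ran from -0.25 to 0.19, Ccl17 ran from -0.10 to 0.24. In Pmel_D over Pmel_V, Ccl9 ran from -0.75 to 0.33, Ccl11 ran from -0.27 to 0.50, Ccl17 ran from -0.11 to 0.20. In Pmel_T over Pmel_V, Ccl3 ran from -0.21 to 0.34, Ccl7 ran from -0.48 to 0.24, Ccl17 ran from -0.13 to 0.18. In Pmel_V over Mock_V, Ccl4 ran from -0.062 to 0.035. In Pmel_D+T over Mock_D+T, Ccl17 ran from -0.0093 to 0.22. In Pmel_D over Pmel_T, Ccl2 ran from -0.15 to 0.36, Ccl6 ran from -0.45 to 0.18, Ccl7 ran from -0.38 to 0.34, Ccl9 ran from -0.011 to 1.08, Ccl12 ran from -0.24 to 0.41, Ccl17 ran from -0.11 to 0.16. In Pmel_D+T over Pmel_D, Ccl3 ran from -0.33 to 0.34, Ccl4 ran from -0.10 to 0.24, Ccl9 ran from -0.077 to 1.01, Ccl11 ran from -0.10 to 0.67. In the interaction, Ccl2 ran from -0.22 to 0.16, Ccl6 ran from -0.48 to 0.079. 

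The alternatives were the replicate block, no filter, a stricter filter, quantile normalization, median centring, averaged probe sets, only the arrays compared, the covariate and leaving out each array. The second probe set and the omission of 4 arrays were chosen after seeing the data; that omission leaves 9 arrays and 3 residual degrees of freedom. Groups of 2 or 3 arrays limit the precision, and values under 5.79 have little signal over background.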
